A study of Mus musculus with 34 samples.

Results

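The methylation of CpG islands was compared between 5 mouse embryos and 16 samples of adult mouse tissue, island by island across the autosomes, to find the genes whose islands differ between mid-gestation and the adult. These 21 arrays are all of the embryo and adult tissue arrays among the 34 of the study, whose other samples are ES cells, their derivatives, teratomas and pancreatic cells. The embryos were taken at 8.5, 9.5, 10.5, 11.5 and 12.5 days post coitum (dpc), with 1 array per stage, and the sources used here do not say whether an array held the DNA of 1 embryo or of several. The adults were 3 months old, and colon, pancreas, brain, kidney, liver, lung, muscle and spleen were each measured on 2 arrays. The labels name no transgene and no treatment for either group, and the DNA came from C57Bl/6 mice by the study's methods. By the labels the embryos of 8.5 to 11.5 dpc and 9 of the adult samples were male, and the embryo of 12.5 dpc and 7 of the adult samples were female.

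CpG islands are short stretches of DNA, rich in the dinucleotide CG, that lie over many promoters and also inside genes. Most of the genome is methylated at CpG around implantation while islands at promoters are spared, and a limited set of islands gains methylation later, as tissues form. In methylated DNA immunoprecipitation (mDIP), an antibody against 5-methylcytidine pulls down methylated fragments, and the bound DNA (Cy5) is hybridised against the input DNA (Cy3) on an array of probes that cover the islands. The ratio of bound over input was expressed as a Z-score, the distance of a probe from the average probe of its array in units of that array's standard deviation. Averaged over the probes of an island, these Z-scores give the island methylation score (IMS). On this scale 0 is the average probe of the array, and by the study's thresholds an island above 0.75 counts as methylated and one below 0 as unmethylated. The study's Z-scores took the melting temperature of the probes into account and those used here did not, so its thresholds are applied to a somewhat different score. The IMS is a relative scale within an array and not a percentage of methylated DNA. In DNA from a whole embryo or organ, a higher share of cells with a methylated island and more methylation per cell cannot be told apart.

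In all, 13320 autosomal islands were scored on every array, each with 3 to 40 probes (median 5) and a median span of 656 bases. They carry 9574 gene names. The precision of a score is limited by the number of its probes and of the arrays. The input signal was 3.07 to 6.98 times its background on the adult arrays and 4.72 to 7.34 times on the embryo arrays. No slide, scan day or version of the scanner software held arrays of both groups, so embryo against adult cannot be told apart from slide, day and software anywhere below. An alternative fit with slide as a fixed block links the groups only through ES cell arrays. Of the 2 groups its difference rests on the embryo of 8.5 dpc and adult pancreas 2 alone. It therefore does not compare 5 embryos with 16 adult arrays. The array design differed in part as well. Most adult arrays were of a design of 97651 probes that no embryo array used. The embryo of 8.5 dpc was on a further design and on a scanner that no adult array used. The SD of the log10 ratios was lowest on 3 adult arrays, of liver, lung and muscle, at 0.25 to 0.32, and 0.43 to 0.53 on the embryo arrays.

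Islands on the X chromosome, which are methylated on the inactive X of females, were used to check the labels and were left out of all other results. The mean IMS of 380 X-linked islands exceeded the autosomal mean by 0.106 to 0.258 on the 9 adult arrays labelled male and by 0.921 to 1.91 on the 7 labelled female. The embryo of 12.5 dpc, labelled female, lay at 1.89, and those of 10.5 and 11.5 dpc, labelled male, at 0.128 and 0.184. The embryos of 8.5 and 9.5 dpc are labelled male and lay at 1.03 and 1.16, far above the male adults. They were inside the range of the female adults only through lung 2 (0.921), as the other female adults lay at 1.36 to 1.91. The labels of these 2 embryos go against the data, and the main counts are therefore given with and without them.

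**Figure D1:**
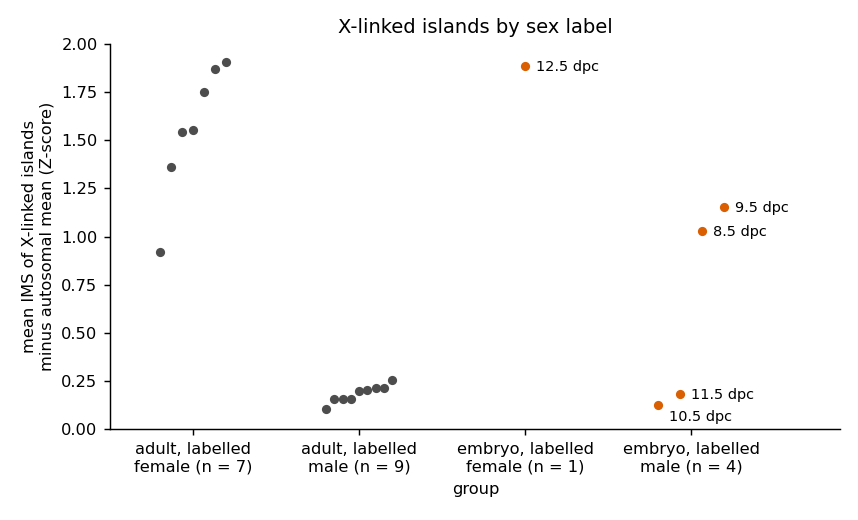
Mean IMS of the 380 X-linked islands minus the mean of the autosomal islands (vertical axis) for each of the 21 arrays, set out by the sex on the label. The embryos of 8.5 and 9.5 dpc, labelled male, lie at 1.03 and 1.16, above all adults labelled male (0.106 to 0.258).

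Embryos and adult tissues shared most of their island pattern, and the islands that differed fell into 2 kinds. A smaller set, most of it methylated in the adult, was far less methylated in embryos, and it held islands of mesoderm and endoderm transcription factors, Hox genes and signalling genes. A larger set scored slightly higher in embryos, and 76.0% of it lay at a start of transcription, beside 64.3% of all islands. Of 13320 islands, 1427 (10.7%) differed at a Benjamini-Hochberg adjusted p under 0.05 in a limma fit of 5 against 16 arrays. Of these, 993 (7.45% of all islands) were higher in embryos and 434 (3.26%) were lower. At an unadjusted p under 0.05 there were 3216. The group means of the islands correlated at r = 0.936 across islands, which are not independent of one another.

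The sizes of the differences were unequal. The median difference, embryo minus adult, was 0.395 over the higher islands and -0.912 over the lower ones, beside 0.058 over all islands. The lower set reached -3.12, with 195 islands below -1, and the higher set reached 1.17, with 8 islands above 1. On 353 islands (2.65%) no embryo array fell within the range of the 16 adult arrays. On 198 of them (1.49%) all embryos were above all adults, and on 155 (1.16%) all were below. With the adjusted p also under 0.05, 197 (1.48%) and 154 (1.16%) were left.

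Of the 434 lower islands, 248 (57.1%) had an adult mean above 0.75, beside 10.8% of all islands, and in 94 of these the embryo mean was below 0, so that an island that was methylated in the adult by the study's thresholds was unmethylated in the embryo. The reverse, an adult mean below 0 and an embryo mean above 0.75, held for 4 islands, those of Cmtm6, Gaa, Ap1b1 and Zfp36. Of the 993 higher islands, 756 (76.1%) had an adult mean below 0, a share close to the 74.6% of all islands. The tests rest on the spread among embryos of 5 stages and among adults of 8 tissues, and the labels do not say that the samples came from separate animals.

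**Figure D2:**
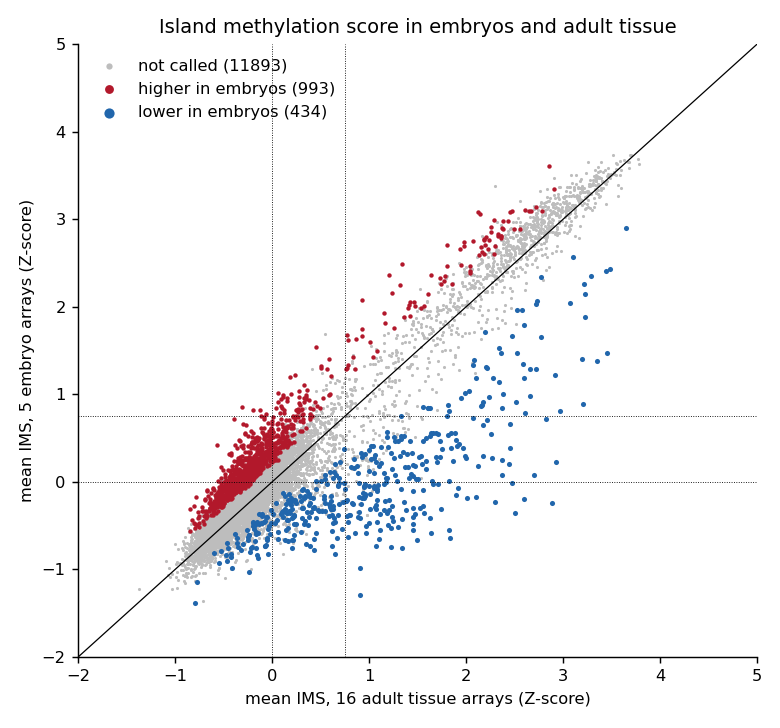
Mean IMS of each of 13320 autosomal islands over the 16 adult arrays (horizontal axis) and over the 5 embryo arrays (vertical axis), with the 993 islands called higher and the 434 called lower in embryos in colour, the line of equal scores and dotted lines at 0 and 0.75. The lower islands reach differences of -3.12, while the higher islands stay within 1.17 of the diagonal.

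Fewer islands counted as methylated in embryos. The share of autosomal islands above 0.75 was 9.54, 9.95, 9.47, 10.0 and 9.53% at 8.5, 9.5, 10.5, 11.5 and 12.5 dpc, and 9.54% to 12.5% on the adult arrays. The mean was 9.70% ± 0.262 (SD, n = 5) in embryos and 11.2% ± 0.932 (SD, n = 16) in adults, a difference of -1.48 percentage points (two-sided exact permutation test over 20349 splits, p = 0.00285). The embryo arrays clustered tightly, and 2 of the 16 adult arrays, lung 2 and muscle 1, fell within their range. With normexp background correction in place of the scanner's log ratio the difference was -0.37 points (exact p = 0.694), and with islands counted above 0.5 it was -1.003 points (exact p = 0.119).

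The promoter sequences of 6 genes show what these islands are made of. Each is 250 bases before to 50 bases after the start of transcription, from RefSeq on GRCm38.p6, with every CG in capitals. Each was chosen because its island spans the start and because it stands for a group described below. Tmed4 and Gaa have promoters that were higher in embryos, Rps10 stands for the ribosomal proteins and Phlda2 for the imprinted genes, and Hoxa5 and Drd4 have promoters that were lower.
Tmed4 (chr11:6274788-6275087, minus strand): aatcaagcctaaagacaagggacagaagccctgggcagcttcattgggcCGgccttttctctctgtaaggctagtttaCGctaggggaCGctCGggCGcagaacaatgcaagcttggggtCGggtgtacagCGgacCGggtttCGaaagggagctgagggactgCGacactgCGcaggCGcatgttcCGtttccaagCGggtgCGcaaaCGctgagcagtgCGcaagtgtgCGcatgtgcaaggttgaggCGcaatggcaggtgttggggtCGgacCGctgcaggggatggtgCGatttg
Gaa (chr11:119267713-119268012, plus strand): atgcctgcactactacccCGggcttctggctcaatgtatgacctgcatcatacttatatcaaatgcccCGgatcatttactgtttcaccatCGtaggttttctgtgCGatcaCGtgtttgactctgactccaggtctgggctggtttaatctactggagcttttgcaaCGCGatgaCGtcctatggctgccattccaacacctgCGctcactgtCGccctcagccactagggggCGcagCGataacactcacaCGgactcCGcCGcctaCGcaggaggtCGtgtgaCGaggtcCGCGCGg
Rps10 (chr17:27635195-27635494, minus strand): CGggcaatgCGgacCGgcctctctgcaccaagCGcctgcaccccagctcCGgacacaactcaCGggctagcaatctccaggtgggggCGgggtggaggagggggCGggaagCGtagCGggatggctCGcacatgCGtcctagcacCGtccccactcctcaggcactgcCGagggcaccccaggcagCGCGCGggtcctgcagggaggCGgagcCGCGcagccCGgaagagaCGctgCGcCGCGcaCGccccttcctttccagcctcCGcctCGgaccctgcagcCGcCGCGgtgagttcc
Phlda2 (chr7:143502475-143502774, minus strand): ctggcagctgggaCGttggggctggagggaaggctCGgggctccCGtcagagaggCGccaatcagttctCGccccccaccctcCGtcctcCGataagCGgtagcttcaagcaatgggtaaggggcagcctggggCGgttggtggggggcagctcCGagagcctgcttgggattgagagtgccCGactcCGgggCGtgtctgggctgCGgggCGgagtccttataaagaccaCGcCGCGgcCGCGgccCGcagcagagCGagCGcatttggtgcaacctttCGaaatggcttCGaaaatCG
Hoxa5 (chr6:52204538-52204837, minus strand): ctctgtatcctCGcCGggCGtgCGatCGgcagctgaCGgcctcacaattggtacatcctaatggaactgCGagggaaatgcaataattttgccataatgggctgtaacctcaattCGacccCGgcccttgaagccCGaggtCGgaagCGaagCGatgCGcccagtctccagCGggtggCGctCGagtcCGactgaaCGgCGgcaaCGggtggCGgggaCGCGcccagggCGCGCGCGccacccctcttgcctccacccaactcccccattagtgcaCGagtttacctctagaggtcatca
Drd4 (chr7:141291768-141292067, plus strand): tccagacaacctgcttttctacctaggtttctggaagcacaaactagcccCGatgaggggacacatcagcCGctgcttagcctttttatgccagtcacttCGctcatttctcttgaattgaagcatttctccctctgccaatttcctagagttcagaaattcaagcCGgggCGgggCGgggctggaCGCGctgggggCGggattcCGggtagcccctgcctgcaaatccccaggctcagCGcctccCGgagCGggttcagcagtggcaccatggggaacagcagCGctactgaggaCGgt
The 6 windows hold 22, 21, 31, 26, 29 and 15 CG in this order. The motif searched was CG, which reads the same on both strands. It is present in 94.6% of the 32851 RefSeq promoters of the same length, with a median of 7 per promoter. The 4644 promoters with an island over the start had a median of 24 CG, those of the higher islands 23 (456 promoters) and those of the lower islands 24 (42 promoters). These medians lay within 1 CG of each other. The islands themselves are placed on mm9, the build named in the newest array headers, and were tied to these promoters by the distance to the start that the array annotation gives.

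The islands furthest below the adult level in embryos, among those on which the groups did not overlap, are described first. Their genes were not tested as groups. The island of Zfp316, a zinc finger protein, spans chr5:144014658-144017045 inside the gene and has 20 probes. Its IMS was 0.14, -0.49, -0.26, -0.22 and -0.16 at the 5 successive stages and 1.67 to 3.11 (median 2.77) in adult tissue. All embryos were near or below the average probe and all adults far above it, with a difference of -2.80 ± 0.19 (SE) and an adjusted p of 1.92e-09.

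Nr4a2, an orphan nuclear receptor of dopamine neurons, had an island at chr2:56963987-56964591 with -0.21, -0.26, -0.083, -0.32 and -0.077 in embryos and 0.63 to 3.35 (median 1.89) in adults. The adults were widely spread, with a tissue mean from kidney (1.34) to pancreas (3.35), and the difference was -2.20 ± 0.35 (SE) (adjusted p = 0.000211). The island of Mab21l1, a gene of eye and lens development, was at -0.86 to -0.49 in embryos and 0.37 to 2.88 in adults (-2.47 ± 0.31 (SE), adjusted p = 1.33e-05). That of Skida1 was at -0.66 to 0.22 against 1.27 to 3.06 (-2.28 ± 0.21 (SE), adjusted p = 2.33e-07).

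The largest difference of all was at Evi5l, which encodes a TBC domain protein that acts on Rab GTPases, in an island deep inside the gene (chr8:4206417-4206764, 4 probes). The embryos were at -0.047, -0.64, -0.41, -0.20 and 0.09 and the adults at 1.57 to 3.58 (median 2.97), so the groups did not overlap and lay -3.12 ± 0.25 (SE) apart (adjusted p = 1.94e-08). The smallest adjusted p, 2.15e-14, was at Rps6ka4, the kinase MSK2 that phosphorylates histone H3 and CREB downstream of MAP kinases (chr19:6904359-6906086, 11 probes). It was at 0.17, -0.078, -0.14, 0.18 and 0.27 in embryos and 2.35 to 3.02 (median 2.64) in adults, with little spread in either group and a difference of -2.62 ± 0.10 (SE). It was called under every alternative setting that rests on more than 1 embryo, and with slide as a fixed block its difference was -2.75.

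Downstream of Exoc6, a subunit of the exocyst, an island also assigned to Cyp26a1, which breaks down retinoic acid, was at 0.15, -0.30, -0.18, 0.24 and 1.10 in embryos and 1.41 to 3.47 (median 2.42) in adults (-2.24 ± 0.26 (SE), adjusted p = 4e-06). The embryo of 12.5 dpc was the highest of the 5 and the only one above 1. Strn4, a striatin that scaffolds phosphatase complexes, had an island upstream of its start at 0.48, 0.57, 0.75, 0.92 and 1.29 in embryos against 1.57 to 3.95 (median 3.02) in adults (-2.17 ± 0.27 (SE), adjusted p = 1.33e-05). The islands of Plekhh3 (-2.52) and Cracr2b, a regulator of store-operated calcium entry (-2.38), were below all adults in every embryo, with adjusted p of 2.86e-07 and 2.07e-06.

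Downstream of Urm1, a ubiquitin-like protein that also carries sulphur for tRNA modification, an island was at -0.022, -0.50, -0.20, 0.47 and 1.39 in embryos and 2.40 to 3.54 (median 2.92) in adults (-2.70 ± 0.20 (SE), adjusted p = 6.16e-09). The embryos of 9.5 and 12.5 dpc were the lowest and the highest, and the adults were tightly grouped. The islands of 1110017D15Rik (-2.49, adjusted p = 2.9e-07) and Fam222a (-2.20, adjusted p = 6.63e-05) were also among the largest negative differences. Of the 13 islands reported here as largest, 10 were called under every alternative setting that gave them a value, other than slide as a fixed block, and Exoc6, Mab21l1 and Nr4a2 lost their call with normexp background correction.

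**Figure D3:**
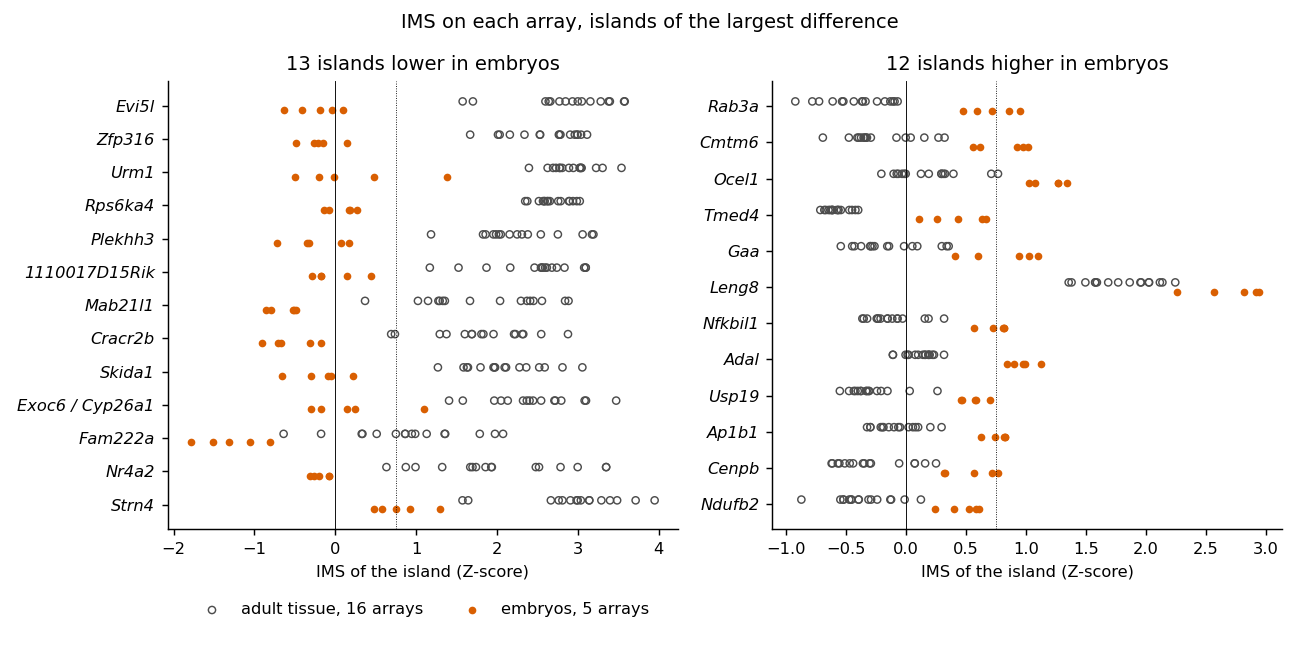
IMS (horizontal axis) of the islands with the largest differences among those on which the groups did not overlap, 12 higher and 13 lower in embryos, with 1 point per array for the 5 embryos (filled) and the 16 adult samples (open) and a dotted line at 0.75. On all of these islands the embryo points lie outside the adult range, from Evi5l with a difference of -3.12 to Rab3a with 1.12.

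Transcription factors of mesoderm and endoderm, which lay down heart, gut, limb and other organs, had islands in both sets. Of 191 of their islands, 36 in 26 genes were lower in embryos and 2 were higher, with a median difference of -0.168 beside 0.058 over all islands, of which 3.26% and 7.45% were lower and higher. All 5 embryos were below all adults on 17 of the 191, all of them among the 36. Over all 13320 islands this held for 155 (1.16%), and for 154 of all 434 lower ones. There were 26 to 34 lower islands with 1 embryo left out, 14 without the embryos of 8.5 and 9.5 dpc, 22 with slide as a random block and 4 with normexp. Nr2f1, the nuclear receptor COUP-TFI, had an island at chr13:78334257-78334904 with -0.68, -0.73, -0.78, -0.69 and -0.44 in embryos and -0.19 to 2.61 (median 1.61) in adults. Embryos were unmethylated at all stages and adults ranged from colon (0.71) to lung (2.13) by tissue, with a difference of -2.16 ± 0.29 (SE) (adjusted p = 4.09e-05). The 2 liver arrays were far apart there, at -0.19 and 1.79. Foxc1, a forkhead factor of vessels, eye and skeleton, had an island downstream of the gene (chr13:31902825-31903955) at 0.012, -0.27, -0.37, 0.15 and 0.092 in embryos and 1.12 to 2.56 (median 1.97) in adults. The groups were well apart, by -1.99 ± 0.16 (SE) (adjusted p = 2.81e-08). Lhx6, a LIM homeobox factor of interneurons and of the jaw, was at -1.08, -0.90, -0.44, -0.33 and -0.19 and -0.44 to 2.23 (median 0.92). The embryo values were higher at each successive stage, and the adult tissues ran from colon at -0.22 to lung at 1.89 (-1.55 ± 0.31 (SE), adjusted p = 0.00176).

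The 2 members that were higher were smaller differences at promoters, and neither was called without the embryo of 8.5 or of 9.5 dpc. They were Prox1, a factor of lymphatic vessels and liver (0.40, adjusted p = 0.0296), and the promoter that Sox18, a factor of vessels, shares with Tcea2 (0.32, adjusted p = 0.0365). A further island of Prox1, farther upstream, was lower in embryos. With the median in place of the mean of the probes the difference at the Prox1 promoter was -0.0115.

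Of 67 islands of the Hox clusters, the genes that give axial identity, 9 (13.4%) were lower and none was higher, with a median of -0.214, beside 3.26% lower and 7.45% higher among all islands. The 9 became 5 without the embryo of 11.5 dpc, 1 without those of 8.5 and 9.5 dpc, 5 and 3 with slide and scan day as random blocks, and 1 with normexp. The 9 islands belong to Hoxa2, Hoxa5, Hoxa7, Hoxa10, Hoxa11 and Hoxb3, with more than 1 at Hoxb3. The differences were small at Hoxa7 (-0.373), Hoxa10 (-0.395) and Hoxa11 (-0.372), and 3 larger ones are described here. The Hoxa2 island lies upstream of the annotated start, at a divergent promoter, and also carries the name 5730596B20Rik. That of Hoxb3 lies 9524 to 10182 bases after the start. At Hoxa5, whose promoter is printed above, the island (chr6:52153690-52154922) was at -0.72, -0.60, -0.41, -0.36 and -0.50 in embryos and -0.33 to 3.57 (median 1.31) in adults. Embryos were uniformly low, and the difference was -1.82 ± 0.44 (SE) (adjusted p = 0.00833). The adult tissue means ran from liver (-0.034) to kidney (2.41), but the 2 arrays of a tissue could be far apart. Kidney was at 3.57 and 1.25 and spleen at 1.59 and 3.13. At Hoxa2 the embryos were at -1.05, -1.02, -0.66, -0.58 and -0.50 and the adults at -0.54 to 3.48 (median 1.23) (-2.10 ± 0.46 (SE), adjusted p = 0.00394). At Hoxb3 the embryos were at -0.14, -0.99, -0.56, -0.20 and -0.26 and the adults at -0.41 to 2.81 (median 1.46) (-1.76 ± 0.35 (SE), adjusted p = 0.0017). Liver was the adult tissue with the lowest mean on these 3 islands (-0.034, 0.0079 and 0.17 in the order given). Its 2 arrays were at -0.33 and 0.27, at -0.54 and 0.555, and at -0.41 and 0.74. The embryo and adult ranges overlapped at Hoxa2 and Hoxb3.

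Of 187 islands of neural and eye transcription factors 4 (2.14%) were lower, a share below the 3.26% of all islands, and none was higher, beside 7.45%. Their median difference was -0.0695. The lower islands were 2 without the embryo of 10.5 dpc and 0 with normexp. The lower ones included Gbx2, a factor of the midbrain-hindbrain boundary, at -0.66 to -0.19 in embryos and 0.059 to 1.79 in adults (-1.05 ± 0.22 (SE), adjusted p = 0.00215). They also included Tbr1, a factor of cortical neurons (-0.75, adjusted p = 0.0171), and Phox2a, a factor of autonomic neurons (-0.49, adjusted p = 0.0433). Phox2a was lowest in adult brain (0.081), about at the level of the embryos.

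Of 64 islands of blood and vessel genes, 12 (18.8%) in 7 genes were lower and 1 (1.56%) was higher, with a median of -0.0381, beside 3.26% and 7.45% of all islands. Without 1 embryo 10 or 11 were lower, without those of 8.5 and 9.5 dpc 4, with slide as a random block 9 and with normexp 1. Fli1, an ETS factor of blood and endothelium, had an island upstream of its start at -0.72, -0.68, -0.53, -0.05 and 0.15 in embryos and 0.68 to 3.14 (median 1.29) in adults. The 2 oldest embryos were the highest but stayed below all adults (-1.84 ± 0.32 (SE), adjusted p = 0.000562). Spleen had the highest adult mean, from arrays at 1.28 and 3.14, and kidney 1 was at 3.10. These lower islands also held Zfpm1 and Gfi1. Zfpm1, the GATA cofactor FOG1, differed by -1.79 ± 0.29 (SE) (adjusted p = 0.000212), and Gfi1, a repressor of blood stem cells, by -1.67 ± 0.43 (SE) (adjusted p = 0.0141). The other lower islands were 4 of Lyl1 (-0.87 to -1.41), 3 of Gata2 (-0.72 to -1.19), 1 of Epor (-0.58) and 1 of Ebf1 (-0.66). The higher one was the promoter of Irf8, a factor of myeloid cells, at 0.31 (adjusted p = 0.0395), a call lost when any embryo other than that of 12.5 dpc was left out.

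Signalling ligands, receptors and antagonists had 12 of 128 islands in 11 genes lower (9.38%) and 2 higher (1.56%), with a median of -0.0275, beside 3.26% and 7.45% of all islands. Leaving out 1 embryo gave 8 to 11 lower islands, leaving out those of 8.5 and 9.5 dpc 6, slide as a random block 8 and normexp 1. Dll4, the Notch ligand of endothelium, was at -0.076, -0.16, -0.14, -0.19 and -0.15 in embryos and 0.42 to 1.88 (median 0.90) in adults. All 5 embryos lay within a narrow band below every adult array (-1.15 ± 0.21 (SE), adjusted p = 0.000886). Fgf17, a growth factor of the midbrain, was at 0.32 to 0.67 against 0.71 to 2.27 (-1.11 ± 0.20 (SE), adjusted p = 0.000824). The 2 higher islands were at the promoter of the TGF-beta receptor Tgfbr2 (0.42, adjusted p = 0.027) and at the start of Sfrp4, a Wnt antagonist, in an island shared with Epdr1 (0.33, adjusted p = 0.00862).

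Clustered protocadherins, adhesion proteins of neurons whose promoters lie in tandem, had 4 of 12 islands lower (33.3%, beside 3.26% of all islands) and none higher, with a median of -0.0009 whose sign changed under 14 of 39 alternative settings. The 4 were in Pcdhga12 (2 islands), Pcdhga11 and Pcdhgb8, all in the gamma cluster. With normexp or with probes well above background alone 0 islands of this list were lower. At Pcdhga12 the embryos were at 0.56, 0.49, 0.83, 1.22 and 1.25 and the adults at 1.09 to 3.05 (median 2.16). The 2 oldest embryos were above the lowest adult array, liver 2 (1.09), and below all other adult arrays. The difference of the groups was -1.28 ± 0.22 (SE) (adjusted p = 0.000433). Neighbouring gamma genes are similar in sequence, so the values of single genes are uncertain.

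Among the higher islands on which the groups did not overlap, Rab3a, the GTPase of synaptic vesicles, had the largest difference, in an island just before its start (chr8:73278838-73279229, 3 probes) at 0.86, 0.95, 0.71, 0.47 and 0.59 in embryos and -0.92 to -0.067 (median -0.36) in adults. Every embryo was above 0 and every adult below it, and the difference was 1.12 ± 0.12 (SE) (adjusted p = 2.49e-06). Tmed4, a cargo receptor of the early secretory pathway whose promoter is printed above, was at 0.67, 0.64, 0.44, 0.26 and 0.11 and -0.71 to -0.40 (median -0.59) (chr11:6174237-6175107). The adults were tightly grouped, and the embryo values were lower at each successive stage (0.99 ± 0.078 (SE), adjusted p = 1.86e-08). Ap1b1, an adaptor subunit of clathrin coats, was at 0.63 to 0.83 in embryos and -0.32 to 0.30 in adults (0.84 ± 0.09 (SE), adjusted p = 1.73e-06).

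Gaa, the lysosomal glucosidase whose promoter is printed above, had an island (chr11:119129170-119129732) at 1.10, 0.95, 1.02, 0.60 and 0.41 in embryos and -0.54 to 0.36 (median -0.21) in adults. The groups were separate by a small gap (0.95 ± 0.14 (SE), adjusted p = 0.000102), and colon had the highest adult mean. Further islands that were higher were those of Usp19, a deubiquitinase (0.84), Ndufb2, a subunit of respiratory complex I (0.82), and Adal, an adenosine deaminase-like enzyme (0.85), with adjusted p of 3.8e-06, 4.34e-05 and 2.81e-08. Adal stood out for its small spread, with embryos at 0.85 to 1.12 and adults at -0.11 to 0.32.

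The islands furthest above the adult level without overlap also held those of Cmtm6, a partner of PD-L1 (1.02, adjusted p = 2.36e-05), Ocel1 (1.01, 1.49e-05), Cenpb, a protein of centromeric repeats (0.82, 0.00029) and Nfkbil1 (0.86, 2.33e-06). An island inside Leng8 had group means above 0.75 in both groups and was higher in embryos, at 2.25 to 2.94 against 1.36 to 2.24 (0.90 ± 0.14 (SE), adjusted p = 0.000142). Of the 12 islands reported here as largest, 11 were called under every alternative setting that gave them a value, other than slide as a fixed block, and Nfkbil1 lost its call with normexp background correction. With slide as a fixed block the differences of Gaa and Nfkbil1 turned to -0.0127 and -0.0724.

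Ribosomal protein genes, whose promoters are active in all cells, had 15 of 86 islands higher and 1 lower, which is 17.4% and 1.16% beside 7.45% and 3.26% of all islands, with a median of 0.107. The 15 became 9, 7, 8 and 9 without the embryo of 8.5, 9.5, 10.5 or 11.5 dpc, and 3 without the first 2 of these. They became 7 with slide as a random block, 5 with the median of the probes, and 0 with normexp. At Rps10, whose promoter is printed above, the island (chr17:27771794-27772404) was at 0.25, 0.22, 0.045, 0.17 and -0.022 in embryos and -0.61 to -0.046 (median -0.30) in adults. The embryos lay just above the adults and all arrays were below 0.75, with a difference of 0.46 ± 0.086 (SE) (adjusted p = 0.000931). Rpl14 differed by 0.53 (adjusted p = 0.00318) in an island downstream of the gene, and Rps24 by 0.51 (adjusted p = 6.11e-05) in one before its start. The lower one was Rps4l, a gene related to Rps4x that was methylated in both groups, at 1.42 to 1.83 in embryos and 1.76 to 3.35 in adults (-0.80 ± 0.19 (SE), adjusted p = 0.00652).

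The names starting with Zfp, most of them DNA-binding zinc finger proteins, had 224 islands, with 20 higher (8.93%), 12 lower (5.36%) and a median of 0.0876, beside 7.45% and 3.26% of all islands. The 20 became 13, 13 and 10 without the embryo of 9.5, 10.5 or 11.5 dpc, 6 without those of 8.5 and 9.5 dpc, 9 with slide as a random block and 2 with normexp. The largest positive difference of all was at Zfp36, which binds AU-rich mRNA and not DNA. It was at 0.80, 0.87, 0.84, 0.92 and 0.82 in embryos and -0.83 to 0.92 (median -0.49) in adults (1.17 ± 0.21 (SE), adjusted p = 0.000744). Brain 2 (0.92) and liver 1 (0.92) reached the level of the embryos, while brain 1 and liver 2 were at -0.54 and -0.30. Zfp710 and Zfp445 were higher by 0.62 and 0.55 (adjusted p = 0.0165 and 0.0184). Beside Zfp316, the lower islands were led by Zfp467 (-1.99, adjusted p = 6.54e-06) and Zfp423, a factor of fat and cerebellum (-1.70, adjusted p = 0.000824).

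Imprinted genes, which are methylated on 1 parental copy at their control regions, had 3 of 49 islands higher (6.12%) and 1 lower (2.04%), shares below the 7.45% and 3.26% of all islands, with a median of 0.0806 (-0.212 with slide as a fixed block). The 3 became 1 without the embryo of 8.5 dpc, and the lower one was not called when any embryo was left out. Phlda2, a growth-limiting gene of the placenta whose promoter is printed above, was at -0.023, 0.11, -0.12, -0.07 and 0.31 in embryos and -0.90 to -0.17 (median -0.56) in adults. All embryos were above all adults, and none reached 0.75 (0.57 ± 0.095 (SE), adjusted p = 0.000322). Inpp5f and Kcnq1 were higher by 0.43 and 0.33 (adjusted p = 0.0181 and 0.0206). Dlk1, a Delta-like ligand of fetal growth, was lower (difference -0.46), at -0.15 to -0.073 in embryos and -0.079 to 0.81 in adults (adjusted p = 0.0228). Brain was the lowest adult tissue at Dlk1, close to the embryos, and colon the highest.

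Germline genes, many of which are silenced by promoter methylation in the soma, were methylated in both groups, with a median island score of 2.63 in embryos and 2.67 in adults. Of 29 islands 1 was higher and none was lower, beside 7.45% and 3.26% of all islands, with a median difference of 0.0934 (-0.225 with slide as a fixed block). The higher one was shared by Tssk6, a testis kinase, and Ndufa13 and had a mean below 0 in both groups (0.42 ± 0.091 (SE), adjusted p = 0.00375).

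Brain and synapse genes had 125 islands, with 3 higher (2.40%), 6 lower (4.8%) and a median of -0.0036 that changed sign under 12 of 39 alternative settings, beside 7.45% higher and 3.26% lower among all islands. The 6 became 4 without the embryo of 8.5 dpc, 3 without any other embryo and 1 with normexp. Drd4, a dopamine receptor whose promoter is printed above, was at -0.26, -0.33, -0.27, -0.22 and -0.17 in embryos and -0.03 to 1.14 (median 0.74) in adults (chr7:148477739-148478348). The embryos were all below 0 and below every adult array (-0.94 ± 0.16 (SE), adjusted p = 0.00046). Shank3, a scaffold of excitatory synapses, differed by -1.28 (adjusted p = 0.00772) in an island deep inside the gene. Kcnc2, a potassium channel gene, was higher by 0.32 (adjusted p = 0.027) in an island before its start.

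Among genes of pluripotency and DNA methylation, 1 of 36 islands was higher (2.78%) and 3 were lower (8.33%), beside 7.45% and 3.26% of all islands, with a median of 0.0326 that changed sign under 8 of 39 settings. The 3 became 0 without the embryo of 9.5 dpc and 1 without that of 11.5 dpc. Mbd1, a protein that binds methylated CpG, was higher by 0.31 (adjusted p = 0.00903). Tbx3 was lower (difference -1.47, adjusted p = 0.0178), as was Utf1, a chromatin factor of pluripotent cells (difference -0.62, adjusted p = 0.0123). Utf1 was at -0.91 to -0.49 in embryos and -0.60 to 0.57 in adults, below 0.75 on all arrays.

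Genes of adult organ function had 20 islands, with 2 higher (10.0%), 3 lower (15.0%), beside 7.45% and 3.26% of all islands, and a median of 0.0111 that changed sign under 18 of 39 settings. The lower ones included those of Nphs1, nephrin of the kidney filter (-1.34, adjusted p = 0.00744) and Cdx1, a factor of the gut, in an island shared with Pdgfrb (-1.33, adjusted p = 0.000768). The higher ones were the muscle genes Ckm (0.43, adjusted p = 0.0154) and Actn3, which shares its island with Zdhhc24 (0.57, adjusted p = 0.000612). Adult pancreas had the highest mean at Nphs1 (2.10).

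Islands at a start of transcription and islands far beyond it differed in unlike proportions. Of the 8570 islands over or within 500 bases of a start of transcription, 8.81% were higher in embryos and 1.31% lower. Of the 1929 islands more than 2000 bases after the start, 5.39% were higher and 10.2% lower. By the array annotation 1441 of these lay inside the gene, of which 5.48% were higher and 10.96% lower, and 407 downstream of it, of which 4.91% were higher and 8.11% lower. Islands more than 500 bases before the start (878) and 500 to 2000 bases after it (394) were lower in 5.92% and 7.87%. The islands more than 2000 bases after the start were also those most methylated in the adult, with an adult mean above 0.75 on 48.5% of them and on 1.80% of the islands at a start. Among adult-methylated islands alone, 20.1% of 154 at a start were lower in embryos and 17.0% of 935 more than 2000 bases after it. Of the 94 islands that were methylated in the adult and unmethylated in embryos, 58 lay more than 2000 bases after the start and 11 at it.

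**Figure D4:**
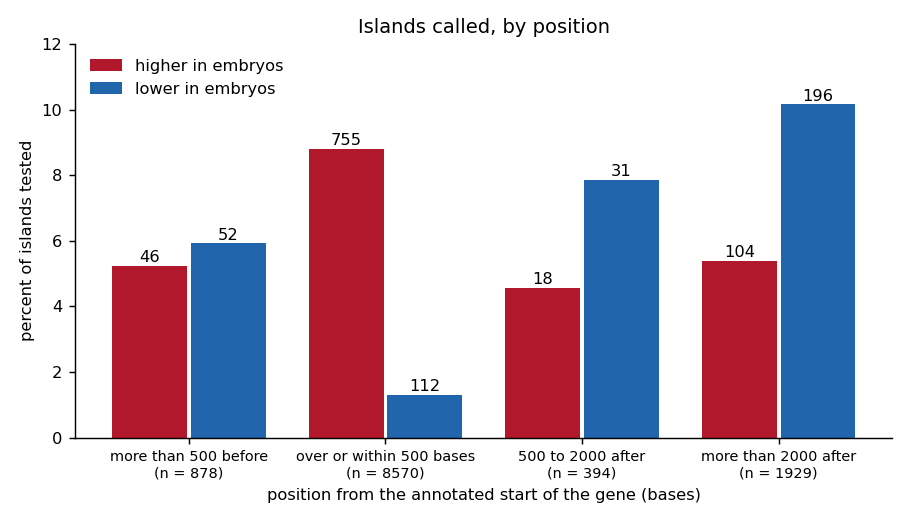
Percent of islands called higher and lower in embryos (vertical axis) by the distance of the island from the start of transcription in the array annotation, with the number called above each bar. Islands at the start were higher in 8.81% and lower in 1.31%, and islands more than 2000 bases after it were higher in 5.39% and lower in 10.2%.

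In 4 genes, Ehbp1l1, Kcnc2, Prox1 and Stx1a, separate islands were called in opposite directions. At Stx1a, a syntaxin of synaptic vesicle release, the island over the start was at 0.11, 0.037, -0.17, 0.07 and -0.12 in embryos and -0.69 to -0.14 (median -0.36) in adults (0.38 ± 0.09 (SE), adjusted p = 0.0077). The island 18323 to 18711 bases inside the gene was at 0.53, 0.72, 0.98, 1.43 and 1.51 and 1.21 to 2.88 (median 2.03) (-0.998 ± 0.24 (SE), adjusted p = 0.00756). The start scored near or below 0 in both groups and slightly higher in embryos, while the inner island was methylated in adults and its embryo score was higher at each successive stage.

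Within the embryos, some of the lower islands were closer to the adult level at later stages. The IMS was higher at each successive stage from 8.5 to 12.5 dpc on 39 of the 434 lower islands (8.99%), beside 1.47% of all islands and 0.302% of the higher islands. On 127 (29.3%) the embryos of 11.5 and 12.5 dpc were both above the 3 earlier ones, beside 10.9% of all islands. Among islands with an adult mean above 0.75 this held for 101 of the 248 lower ones (40.7%) and for 132 of the other 1192 (11.1%). By size the order was reversed. The median of 12.5 minus 8.5 dpc was 0.154 on these 248 islands and 0.378 on the other 1192. Over all 434 lower islands it was 0.080, beside -0.062 over all islands. A rise between these stages was thus not particular to the lower islands. With 1 array per stage no test of stage was made. The embryos of 11.5 and 12.5 dpc shared a slide, as did those of 9.5 and 10.5 dpc, and stage and slide cannot be told apart.

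Insl3, the hormone of testis descent, gave the steepest such series, at -1.06, -0.52, -0.25, 0.67 and 1.55 in embryos and 1.48 to 3.81 (median 2.15) in adults (chr8:74209741-74210052, difference -2.29, adjusted p = 0.000218). It was unmethylated at 8.5 dpc and within the adult range at 12.5 dpc. Zfp467 ran through 0.40, 1.002, 1.38, 2.04 and 2.52 toward an adult range of 2.75 to 4.10 (median 3.42), and Sipa1, a Rap GTPase-activating protein, through 0.29, 0.49, 0.77, 1.35 and 2.12 toward 1.38 to 3.77 (median 2.22). At Tpp1, a lysosomal peptidase, the series was 0.33, 0.90, 1.54, 1.91 and 2.04 beside 1.63 to 3.85 (median 2.66) in adults. Kdm6b, a histone H3K27 demethylase, Gata2, Tbx2, Fli1, Lhx6, Egr3 and Hoxa2 had islands among the rest of these 39. The higher islands went the other way, with the 2 late embryos below the 3 earlier ones on 231 of 993 (23.3%), beside 16.4% of all islands.

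**Figure D5:**
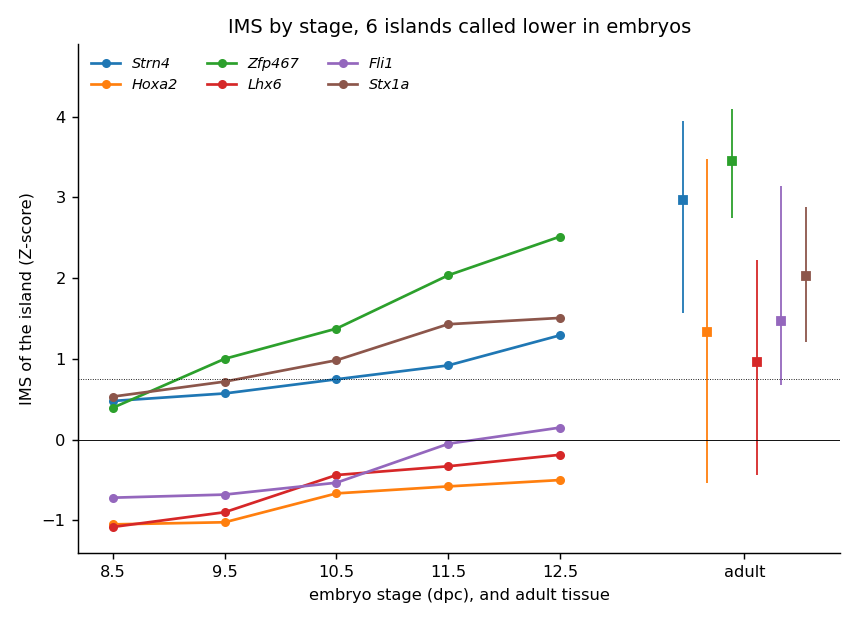
IMS (vertical axis) by embryonic stage in dpc (horizontal axis), 1 array per stage, for islands of Strn4, Hoxa2, Zfp467, Lhx6, Fli1 and Stx1a that were lower in embryos. Squares give the adult mean and vertical lines the range of the 16 adult arrays, the dotted line marks 0.75, and the score of Zfp467 was 0.40 at 8.5 dpc and 2.52 at 12.5 dpc beside an adult mean of 3.45.

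Each adult tissue was set beside the embryo mean on the called islands. On 426 of the 434 lower islands the mean of each of the 8 tissues was above the embryo mean, and on 975 of the 993 higher islands each was below it, beside 1113 and 2793 of all 13320 islands. The islands were called on these same values against the spread among adult arrays, so these counts do not test whether the tissues agree. Every embryo array lay below every adult array on 154 of the 434 lower islands. Spleen was the highest tissue on 109 of the lower islands and the lowest on 4, and its median IMS over them was 1.17, beside 0.686 in liver and 0.702 in brain. Embryo arrays correlated with one another at a median of 0.963 and with adult arrays at 0.871. The 2 arrays of an adult tissue correlated at a median of 0.889 and arrays of different adult tissues at 0.898. Arrays of the same tissue were thus no more alike by this measure, and the rankings of tissues were not tested.

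On the 434 lower islands the other arrays of the study lay above the embryos. The median IMS was -0.26 to -0.11 on the embryo arrays and 0.49 to 1.19 on the adult arrays. It was 0.0039 in EB5 ES cells and 0.188 in TT2 ES cells, between the groups. The array of J1 ES cells is not reported, since its scanner values correlated at 0.113 with the deposited table, beside 0.894 to 0.991 on every other array. ES cells differentiated in vitro were at 0.494 to 0.691, the teratomas at 0.545 and 0.602, and beta cells at 0.630, inside the adult range. The pancreatic lines Min6 and aTC were at 1.42 and 1.41, above all adult arrays. These are values of single arrays on islands chosen for the embryo and adult difference, and were not tested.

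The number of calls depended on which embryos were used and on how slides were treated. Without the embryos of 8.5 and 9.5 dpc, whose X-linked islands go against their labels, 423 islands were called, 274 higher and 149 lower, and 416 of them were among the 1427. All 1427 kept their direction. With slide as a random block 756 were called (503 higher, 253 lower). On the array design that both groups share, which leaves out the embryo of 8.5 dpc, 1012 were called (635 higher, 377 lower). The median difference over all islands was 0.011 there, beside 0.058 on all arrays. Slide was also used as a fixed block in a fit that adds the ES cell arrays. Its groups are linked only by the slide of the 8.5 dpc embryo and TT2 cells and that of pancreas 2 and EB5 cells. The embryos of 9.5 to 12.5 dpc were on slides of embryos alone and J1 was alone on its slide. They have no weight in the difference, which therefore rests on 1 embryo and 1 adult array. Under this fit 1200 of the 1421 calls with a value kept their direction. Under it the differences of Rps24, Inpp5f, Tssk6, Kcnc2, Tgfbr2 and Sfrp4 were negative, between -0.0698 and -1.001. With normexp background correction 251 were called (178 higher, 73 lower).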

How the data were processed

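DNA from 5 embryos and 16 adult tissue samples was measured by mDIP on 2-colour Agilent CpG island arrays, 1 array per sample, with bound DNA in Cy5 and input DNA in Cy3. Spot and background intensity was extracted by the authors with Agilent Feature Extraction, and the deposited scanner files give a background-subtracted, linearly dye-normalized log10 ratio of bound over input. Per the file headers the adult arrays used version 10.5.1.1 and the embryo arrays 10.9.1.1 (8.5 dpc) and 10.7.3.1. A further table deposited by the authors gives 1 score per probe and array, a Z-score that by the methods took the melting temperature of the probe into account, and was used as an alternative.

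Control spots and flagged spots (2 to 164 per array) were left out, and the log ratios of an array were turned into Z-scores, without regard to melting temperature. The 88737 probes found on every array were joined by name, and 88321 had a position on mm9, the build named in the newest headers. Neighbouring probes no more than 500 bases apart were joined into islands, those with at least 3 probes on each array were kept, and the IMS is the mean over their probes. X-linked islands were left out of the tests, and no Y-linked island passed. Gene names are those of the array annotation, updated through RefSeq tables of GRCm38.p6, with 57 unmatched. An island may carry the names of several genes. Promoter sequences are RefSeq's.

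Embryos and adults were compared with limma 3.58.1 under R 4.3.3 (functions lmFit and eBayes) and Benjamini-Hochberg adjustment over all 13320 islands, and the share of islands above 0.75 by a two-sided exact permutation test over arrays. The fit was tested on simulated data without slide effects, in which 200 of 13320 islands were changed by 1. It recovered 96% of these, and 7.69% of its calls were false. Other steps used Python 3.11.15, numpy 2.4.6, pandas 2.3.3, scipy 1.17.1 and matplotlib 3.10.9. The named islands are, in each direction, the 14 with the largest difference among those with a gene name, an adjusted p under 0.05 and no overlap of the groups, and up to 3 per gene list and direction, 1 per gene, and 4 islands that met this rule are not reported here. The islands of the stage series, the genes called in both directions and the 4 islands that crossed both thresholds were picked after their values were seen. The comparison and the gene lists were chosen with earlier results of these data known. The alternatives changed the scale, the background correction, the source, the probes, the islands, the blocks and the arrays used. Normexp was run on median signals with an offset of 50.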

Additional observations from a re-analysis of the deposited data

Results flagged for a closer look

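X-linked islands lie outside the comparison of autosomal islands, and 2 embryos gave a signal there that adults of the same label lack. The mean IMS of 380 X-linked islands exceeded the autosomal mean by 1.03 in the embryo of 8.5 dpc and by 1.16 in that of 9.5 dpc, both labelled male. Adult arrays labelled male lay at 0.106 to 0.258. The cause was not tested. No value of 74 groups of embryo values tested for a single distant array stood apart by Dixon's criterion.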

How the results depend on the processing

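The embryo and adult arrays share no slide, scan day or software version, and software version as a block was not run because no version held both groups. No paired analysis was possible because the embryo stages and the adult tissues share no replicate number that pairs them. Signal over background was low, with the bound signal at 1.54 to 5.59 times its background on the adult arrays and 1.95 to 4.32 times on the embryo arrays.

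Of 1427 calls, leaving out 1 embryo left 842 to 1308, the lowest without the embryo of 9.5 dpc (replicate 2), with 949 and 895 without those of 10.5 and 11.5 dpc. In alternatives chosen after seeing the data, leaving out a pair of embryos gave 415 (9.5 and 10.5 dpc), 826 (11.5 and 12.5 dpc) and 423 (8.5 and 9.5 dpc). The count was 921 with log2 ratios not divided by the SD, 251 with normexp, 855 with the deposited table (6561 islands tested), 756 and 712 with slide and scan day as random blocks, 664 at an adjusted p under 0.01, and 2400 with both arrays of a tissue averaged, which gave 8 adult values. With slide as a fixed block in the fit of 4 groups it was 7, of which 14.3% were higher, beside 69.6% of the 1427 and 61.9% to 72.3% under all other settings. The causes were not tested.

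The difference in the share of methylated islands was -1.003 points above 0.5 (exact p = 0.119) and -0.370 points with normexp (exact p = 0.694), and the exact p stayed at 0.0286 or below under the other alternatives. With normexp 27 of the 73 named islands kept their call, and Dll4, Hoxa5 and Zfp423 were among those that lost it. The totals that follow include the fit with slide as a fixed block, in which the difference rests on 1 embryo. Over all alternatives the named islands kept their call in 2453 of 2836 results, lost it in 374 and turned in 9. With slide as a fixed block these were Gaa (-0.0127), Nfkbil1 (-0.0724), Rps24 (-0.0698), Inpp5f (-0.675), Tssk6 (-1.001), Kcnc2 (-0.280), Tgfbr2 (-0.216) and Sfrp4 (-0.0895), and with the median of probes Prox1 (-0.0115).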
